A study of Mus musculus with 47 samples.

Results

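Gene expression in the olfactory epithelium of mice labelled OIVT;Kir2.1 by strain, here Kir, was compared between postnatal day 10 (P10) and postnatal day 5 (P5). The libraries were chosen by their titles, which give age, genotype and the prefix cry6, and they number 7 of the 47 in the series, 4 at P10 and 3 at P5. Polyadenylated RNA had been extracted from dissected epithelium and sequenced as Illumina mRNA libraries. The wild-type reference (WT, strain label C57BL/6J) held 3 libraries at P10 and 3 at P5, also of prefix cry6. The channel Kir2.1, encoded by Kcnj2, passes potassium inward more readily than outward and holds a membrane near its resting potential. The labels name neither the promoter nor the cells that drive the Kir2.1 transgene, do not explain OIVT, and are silent on whether libraries stem from separate animals. P-values then measure only the spread among these libraries, some of which may be technical.

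The olfactory epithelium renews itself throughout life. Dividing basal progenitors give immature sensory neurons, which send an axon to the olfactory bulb, choose a single odorant receptor gene and then turn on Omp and the cAMP cascade that turns odor binding into current. Interferon signalling is a separate program: type I interferon acts through transcription factors that bind interferon-stimulated response elements, and induces antiviral genes and class I antigen presentation.

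Counts per gene and TPM (a level scaled to transcript length and to the library total) were used. Gene counts per library ran from 19246688 to 30385151 over the 13 libraries. Kir P10 replicates 1 and 2 stood apart, with 17.7% and 33.5% of reads unmapped against 1.31% to 1.995% in the other 11. Ribosomal protein genes took 3.37% and 3.03% of their gene counts, against 0.744% and 0.797% in Kir P10 replicates 3 and 4. The counts of the larger lists below are therefore also given without both libraries. Xist TPM was 58.7 to 94.8 in all 4 Kir P10 libraries and in Kir P5 replicates 1 and 2 it was 70.0 and 70.6, but in Kir P5 replicate 3 it was 0.16, so the mix of sexes differed between the ages. Without Kir P5 replicate 3, which removes that difference, 14 class I and 6 class II genes were called higher (16 and 7 with it), 6 axon guidance and 6 synaptic release genes (9 and 9), and 8 progenitor and 9 fetal growth genes lower (10 and 11).

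Kcnj2 marked the genotype in every library. Its TPM was 193, 175 and 217 in Kir P5 replicates 1 to 3 and 224, 322, 263 and 288 in Kir P10 replicates 1 to 4, against 8.93 to 13.1 in the 6 WT libraries. All P10 values lay above all P5 values. The log2 fold change from counts was 0.35 ± 0.12 (standard error), which edgeR's quasi-likelihood test did not call (adjusted p = 0.0815). By limma on log2(TPM + 1) it was 0.48 (adjusted p = 0.0441), and without Kir P10 replicate 1 edgeR called it (adjusted p = 0.0314). In the other 6 of 7 fits that left out 1 Kir library edgeR did not call it (adjusted p up to 0.245, without Kir P5 replicate 2). Without both libraries of many unmapped reads it was not called either (edgeR adjusted p = 0.0898).

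Across 19528 genes tested, edgeR called 1483 higher (7.59%) and 1135 lower (5.81%) at P10 in Kir, at a Benjamini-Hochberg adjusted p below 0.05. Of these, 418 rose and 81 fell at least 2-fold. Without the 2 libraries of many unmapped reads 1021 genes rose (5.17% of 19730) and 721 fell (3.65%). Of the 1483 rises 881 were called in the same direction in that fit, and of the 1135 falls 546. On log2(TPM + 1), limma called 1133 genes higher (6.42% of 17649) and 358 lower (2.03%), so rises made up 76.0% of calls there against 56.6% in the counts. Leaving out 1 library also moved the counts: without Kir P5 replicate 1, 2 or 3 the rises numbered 675, 549 and 710 and the falls 519, 549 and 576, and without Kir P10 replicate 2 they numbered 985 and 697.

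Interferon-inducible and antigen-presentation genes made up 8 of the 12 largest rises named below. The promoters of 5 other genes of these kinds, picked from those that held the sequence searched for, are shown first. The window searched was the 250 bases before the gene's start in RefSeq promoter sequences (build GRCm38.p6), for the core of the interferon-stimulated response element, GAAA, any 2 bases and GAAA again, on both strands. 4 members named by rule and Isg15, chosen after its values were seen for its 3 overlapping matches, are printed with 15 bases on each side. Capitals mark the matches, which read as the reverse complement where the element lies on the other strand.
Ifit3: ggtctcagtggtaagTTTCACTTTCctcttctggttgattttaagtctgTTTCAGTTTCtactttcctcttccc
Isg15: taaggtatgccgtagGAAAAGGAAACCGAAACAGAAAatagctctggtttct
Oas3: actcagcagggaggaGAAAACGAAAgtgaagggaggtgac
Trim30a: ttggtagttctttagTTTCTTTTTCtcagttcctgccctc
B2m: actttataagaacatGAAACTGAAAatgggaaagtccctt
The stretches lie at chr19:34583358-34583431 (plus strand), chr4:156200860-156200911 (minus), chr5:120777710-120777749 (minus), chr7:104465205-104465244 (minus) and chr2:122147533-122147572 (plus), in this order. The matches of Ifit3 lie 113 to 156 bases before its start and those of Isg15 57 to 78, while the single matches of Oas3, Trim30a and B2m lie 66 to 75, 27 to 36 and 130 to 139 bases before theirs. The core was found in 16 of the 27 tested interferon-stimulated genes with a promoter in the table (59.3%) and in 3 of 16 class I presentation genes (18.8%). It was found in 84 of 1094 genes called higher (7.68%), 23 of 873 called lower (2.63%) and 936 of all 27025 promoters (3.46%). These shares describe letters in a window, not binding.

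Of 38 interferon-stimulated genes 35 rose and 0 fell, with a median log2 fold change of 1.65 against 0.00 over all genes tested. The TPM of all 38 was higher in each P10 library than in each P5 library, which held for 15.9% of all genes tested. Without both libraries of many unmapped reads 32 rose (median 1.75), by TPM 37 rose, and without Kir P5 replicate 3 35 rose (median 2.05). Their summed TPM was 526, 1214 and 1589 in Kir P5 replicates 1 to 3 and 2752, 3948, 4345 and 4143 in Kir P10 replicates 1 to 4. The P5 libraries thus differed among themselves, replicate 1 being lowest. In WT the sum lay between 294 and 516 at P5 and between 320 and 434 at P10, and 0 of the 38 genes were called there (over all genes in WT 1.54% higher and 2.38% lower). Without Kir P5 replicate 1 or 2 the number that rose was 27.

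Trim30a, a tripartite motif protein of innate immunity (chromosome 7, 104409025 to 104465193 on GRCm38), had TPM 0.67, 1.34 and 1.48 at P5 and 3.79, 7.01, 8.05 and 8.52 at P10. This was a log2 change of 2.53 ± 0.36 (edgeR adjusted p = 0.00178). Oas3, an oligoadenylate synthetase that senses double-stranded RNA, went from 0.58, 1.47 and 1.24 to 4.03, 4.90, 7.66 and 3.94 TPM (2.18 ± 0.31, edgeR adjusted p = 0.00178). For both genes, whose promoter stretches are printed above, the ages did not overlap. Eif2ak2, the kinase PKR that halts translation on double-stranded RNA, had 9.76, 12.2 and 13.7 TPM at P5 and 24.7, 33.1, 23.6 and 30.1 at P10. The log2 change was 1.11 ± 0.15 (edgeR adjusted p = 0.00143), and in WT it lay at 6.56 to 9.35 TPM. Parp14, an interferon-induced ADP-ribosyltransferase, rose by 1.34 ± 0.19 from 5.92 to 9.76 TPM at P5 to 16.7 to 24.99 at P10.

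The more abundant members moved in the same direction. Ifi27l2a, a small interferon-induced protein, had 91.1, 278 and 243 TPM at P5 and 589, 897, 983 and 891 at P10 (log2 fold change 1.96 ± 0.39, edgeR adjusted p = 0.00806). Oasl2, an OAS-like antiviral protein, had 51.3, 110 and 169 TPM at P5 and 269, 340, 354 and 379 at P10 (1.48 ± 0.31, edgeR adjusted p = 0.00963). Ifit3, which binds foreign RNA with Ifit1, had 4.84, 34.9 and 61.0 TPM at P5 and 130, 171, 170 and 205 at P10. In both genes P5 replicate 1 was the lowest library and every P10 library lay above every P5 library. The rise of Ifit3 was called (2.54 ± 0.74, edgeR adjusted p = 0.0395) but not without both libraries of many unmapped reads (adjusted p = 0.0921), nor in 5 of the 7 fits that left out 1 Kir library (Kir P5 replicate 1 or 2, or Kir P10 replicate 1, 2 or 4), where adjusted p reached 0.124 without Kir P5 replicate 2. Isg15, a ubiquitin-like modifier, had 32.4, 103 and 165 TPM at P5 and 242, 359, 393 and 364 at P10 (1.69 ± 0.48, edgeR adjusted p = 0.0361), and its call was lost without Kir P5 replicate 1 or 2 or Kir P10 replicate 2, 3 or 4, with an adjusted p up to 0.11. Reads of Ifit3 can be shared with the near-identical Ifit3b. Of 2 families grouped by name after their values were seen, 6 of 7 guanylate-binding protein genes tested rose and 6 of 7 schlafen genes, 5 and 5 without both libraries of many unmapped reads. Of 49 tripartite motif genes 13 were higher and 3 lower, against 7.59% and 5.81% of all genes tested. Without both libraries these numbers were 10 and 0, against 5.17% and 3.65% of all genes.

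**Figure D1:**
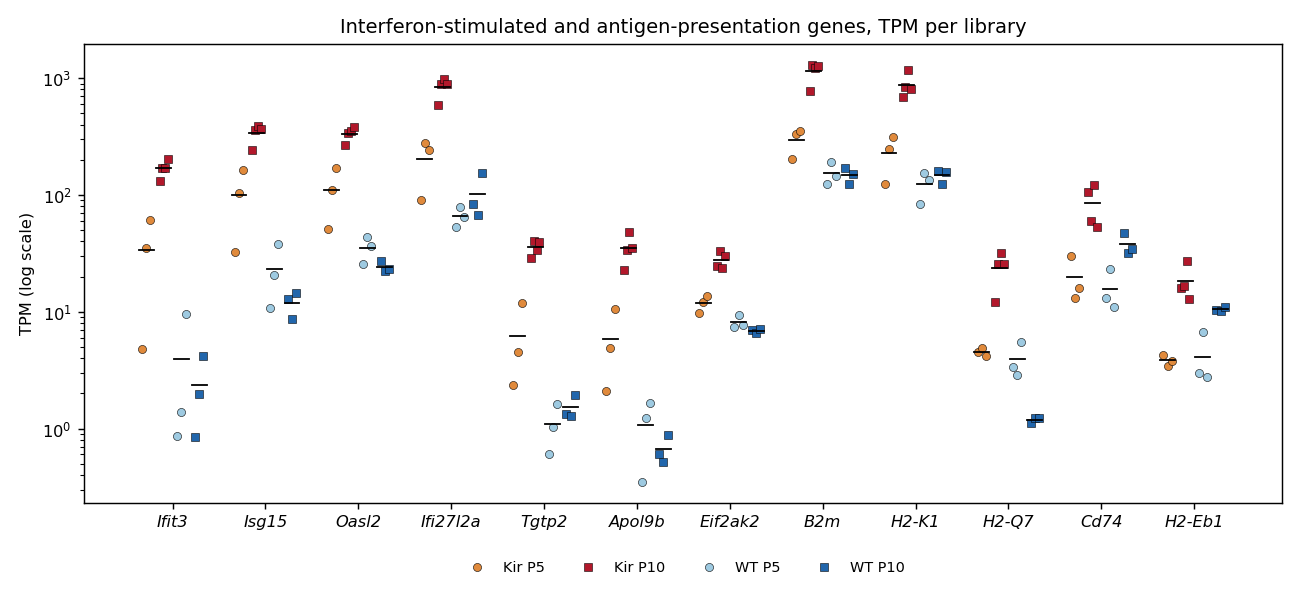
TPM per library (log scale) of 12 interferon-stimulated and antigen-presentation genes, with each point a library and each bar a group mean. The Kir P10 libraries (red squares) lie above the Kir P5 libraries (orange circles) in all 12 genes, while for Isg15 the WT P10 libraries stand at 8.63 to 14.4 TPM and the WT P5 libraries at 10.7 to 38.1.

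The 12 largest rises among genes with a mean of at least 5 TPM, called with and without both libraries and with no overlap of the ages, held 8 genes of immunity, namely H2-Q7, H2-Q6, Tgtp1, Tgtp2, Iigp1, Apol9a, Apol9b and Oas2. In all, 631 genes met that rule. Tgtp2, an immunity-related GTPase (chromosome 11, 49057194 to 49064206), had 2.38, 4.52 and 11.8 TPM at P5 and 28.8, 40.5, 33.5 and 39.9 at P10 (3.07 ± 0.51, edgeR adjusted p = 0.00325). Its neighbour Tgtp1 rose by 2.90 ± 0.60 and Iigp1, another GTPase of the same family, by 2.42 ± 0.46. Apol9b, an apolipoprotein L gene, had 2.11, 4.93 and 10.6 TPM at P5 and 22.7, 33.6, 48.2 and 35.3 at P10 (2.67 ± 0.42), and its close copy Apol9a rose by 2.88 ± 0.48. Oas2 had 1.24, 2.36 and 3.16 TPM at P5 and 10.3, 18.8, 19.2 and 18.4 at P10 (2.73 ± 0.41, edgeR adjusted p = 0.002). The P10 libraries of these genes all lay above 7 TPM and above the P5 libraries. Gm21092 and Gm45418 rose by 3.32 ± 0.72 and 2.69 ± 0.62, from at most 2.44 and 3.57 TPM, and lost the call without Kir P5 replicate 2 (edgeR adjusted p = 0.0532 and 0.0701); for Gm21092 it was also lost without Kir P5 replicate 1 (0.0542) and the change was 1.88 without both libraries of many unmapped reads. Close copies such as Tgtp1 and Tgtp2, or Apol9a and Apol9b, can share reads, so their single values are uncertain.

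Class I antigen presentation, by which cells display internal peptides to T cells, rose with them. Of 18 genes 16 rose and 0 fell (median log2 fold change 1.48), 15 without both libraries of many unmapped reads and 14 by TPM, while in WT 0 rose and 1 fell. The number that rose in Kir was 11 without Kir P5 replicate 1 and 11 without replicate 2. B2m, the light chain of every class I molecule, had 205, 334 and 349 TPM in Kir P5 replicates 1 to 3 and 776, 1300, 1216 and 1273 TPM in Kir P10 replicates 1 to 4. The log2 change was 1.80 ± 0.24 (edgeR adjusted p = 0.0015), and WT libraries held 124 to 193 TPM. H2-K1, a classical heavy chain, had 125, 247 and 311 TPM at P5 and 683, 842, 1182 and 815 at P10 (2.02 ± 0.31, edgeR adjusted p = 0.00219). H2-Q7, a non-classical heavy chain (chromosome 17, 35439155 to 35443773), had 4.51, 4.92 and 4.18 TPM at P5 and 12.04, 25.7, 32.1 and 25.4 at P10. Its change was 3.23 ± 0.50 in counts (edgeR adjusted p = 0.00223) and 2.09 on log2(TPM + 1). H2-Q4 rose by 1.76 ± 0.26 and H2-Q6 by 2.54 ± 0.42. In H2-Q6 the WT change was a fall, of 2.02 on the log2 scale (edgeR adjusted p = 0.0478). Heavy-chain genes of this cluster are close copies, so single values depend on how reads were placed.

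Class II presentation genes, which antigen-presenting cells use to show ingested peptides, rose in 7 of 7 cases (median 1.51), also without both libraries of many unmapped reads. By TPM 6 rose, and 5 and 6 rose without Kir P5 replicate 2 or 3. H2-Eb1 had 4.26, 3.46 and 3.80 TPM at P5 and 15.9, 16.5, 27.5 and 12.8 at P10 (2.08 ± 0.34, edgeR adjusted p = 0.00296). In WT it also rose, by 1.39 (edgeR adjusted p = 0.0449), the 1 class II gene called there. All 7 class II genes had a positive change in WT, with a median of 0.78. Cd74, the invariant chain, had 30.1, 13.2 and 16.0 TPM at P5 and 106, 60.3, 122 and 53.2 at P10 (1.97 ± 0.37), and H2-Ab1 rose by 1.51 ± 0.28. Ciita, the master regulator of class II genes, rose by 1.18 ± 0.24 in counts at no more than 1.68 TPM, and was not called by TPM (0.45, limma adjusted p = 0.102).

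Macrophage markers rose in part. Of 17 markers 4 rose and 0 fell (median 0.54), against 7.59% and 5.81% of all genes tested. Without both libraries of many unmapped reads 2 of the 17 rose, against 5.17% of all genes. The log2 fold change was positive in 14 of the 17 (lowest -0.82), and in 11 without both libraries (lowest -1.71). In TPM the ages did not overlap for 9 markers with P10 higher and for 1 with P10 lower. Over all genes tested these shares were 15.9% and 6.02%. The summed TPM of the 17 was 190 to 233 at P5 and 254 to 328 at P10. Ctss, a lysosomal protease of antigen-presenting cells, had 9.32 to 11.99 TPM at P5 and 20.03, 24.6, 23.8 and 27.0 at P10 (1.09 ± 0.14, edgeR adjusted p = 0.00129). Mpeg1, a pore-forming protein of macrophages, rose by 1.04 ± 0.15. Cx3cr1, a microglial and macrophage chemokine receptor, and C1qb, a complement subunit, had changes of 0.65 ± 0.17 and 0.60 ± 0.17 that were not called without both libraries (edgeR adjusted p = 0.0637 and 0.0894). The number of macrophage markers called also went to 2 without Kir P5 replicate 1 or 3 or Kir P10 replicate 2 or 3. Of 10 neutrophil markers 8 were tested and 0 called. Of 15 lymphoid markers 9 were tested and 1 was called higher, Cd4 (0.93, edgeR adjusted p = 0.0327), against 7.59% of all genes. Cd4 was chosen after its value was seen and was not called without both libraries (edgeR adjusted p = 0.0778). Nor was it called without Kir P5 replicate 1 or 3 or Kir P10 replicate 1 or 3. Whether these cells contribute to the interferon-stimulated and class I and II changes was not tested, and in tissue RNA more cells of a type and more RNA per cell cannot be told apart.

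**Figure D2:**
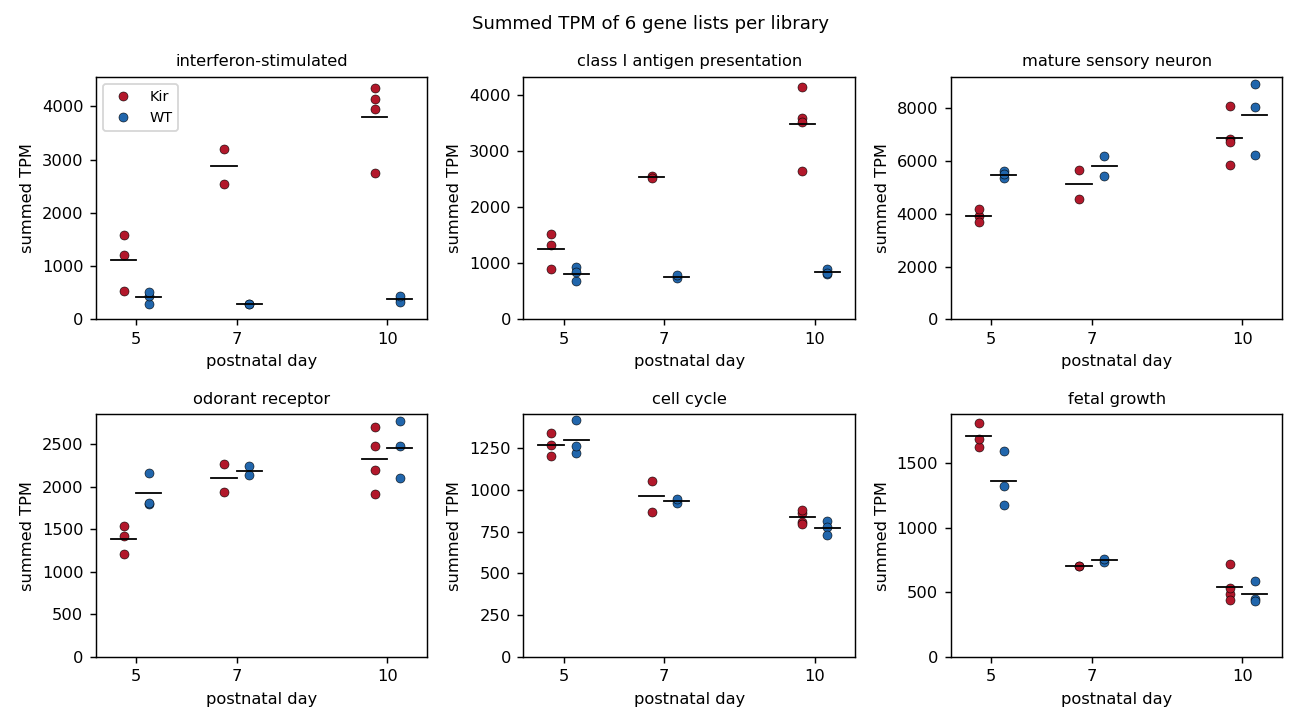
Summed TPM of 6 gene lists per library against postnatal day, for libraries of prefix cry6 at P5, P7 and P10, with bars at group means. In Kir the interferon-stimulated sum was 526 to 1589 at P5, 3203 and 2551 in the 2 P7 libraries and 2752 to 4345 at P10, while the cell cycle and fetal growth sums were lower at P10 than at P5 in both genotypes.

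The 2 Kir libraries of prefix cry6 at P7 fall between the ages compared. Their interferon-stimulated sums, 3203 and 2551 TPM, lay above the 3 P5 libraries and overlapped the P10 libraries. B2m stood at 859 and 743 TPM, Ifit3 at 169 and 84.9 and H2-K1 at 585 and 675. H2-Eb1, at 6.30 and 10.4 TPM, still lay below the 4 P10 libraries. With 2 libraries no test was made.

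Genes of mature sensory neurons rose. Of 20 genes 15 rose and 0 fell (median 0.62), 17 without both libraries of many unmapped reads and 16 by TPM, and in WT 7 rose (median 0.46). Without Kir P5 replicate 1 or 2 the number was 10. Omp, which marks the mature state (chromosome 7, 98143359 to 98145502), had 482, 463 and 562 TPM at P5 and 855, 868, 1215 and 855 at P10. It changed by 0.78 ± 0.16 on the log2 scale (edgeR adjusted p = 0.00806), and in WT 0.69 (adjusted p = 0.0367). Gnal, the olfactory G protein, had 181, 168 and 180 TPM at P5 and 304, 359, 412 and 360 at P10 (0.92 ± 0.12, edgeR adjusted p = 0.00133). Cnga2, the cyclic-nucleotide-gated channel subunit that carries the odor current, had 137, 137 and 160 TPM at P5 and 274, 371, 332 and 328 at P10 (0.88 ± 0.12, edgeR adjusted p = 0.0014). Stoml3, a stomatin-like protein of sensory cilia, rose by 0.70 ± 0.11 and Rtp2, which helps odorant receptors reach the membrane, by 0.67 ± 0.11. Gfy, a Golgi protein of sensory neurons, rose by 0.66 ± 0.15, a call lost without Kir P5 replicate 1 or 2 (edgeR adjusted p up to 0.0652). Gng13, the gamma subunit partner of the cascade, went from 555 to 625 TPM at P5 to 893 to 1140 at P10 and was called by TPM (0.80, limma adjusted p = 0.00904) but not in counts (0.34 ± 0.26, edgeR adjusted p = 0.409).

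Markers of immature neurons did not move together: of 18, 3 rose and 1 fell (median 0.10), against 7.59% and 5.81% of all genes tested. The 1 fall lies near the share over all genes. The numbers were the same without both libraries of many unmapped reads, against 5.17% and 3.65% of all genes. Stmn4, a microtubule regulator, had 69.2, 59.7 and 80.2 TPM at P5 and 152, 155, 184 and 157 at P10 (1.10 ± 0.13, edgeR adjusted p = 0.000947), and in WT it rose by 1.03. Hdac9, a histone deacetylase, rose by 0.62 ± 0.10. Dcx, a microtubule protein of migrating neurons, rose by 0.55 ± 0.12 and was not called without Kir P5 replicate 2 or 3 (edgeR adjusted p = 0.0607 and 0.0536). Cxcr4, the chemokine receptor of the earliest neurons, fell by 0.61 on the log2 scale, from 96.3 to 105 TPM at P5 to 66.3 to 74.4 at P10 (edgeR adjusted p = 0.00264). Tuba1a, a tubulin of growing axons, had 27607, 24169, 15351 and 17545 counts in Kir P10 replicates 1 to 4 and 13049 to 15125 at P5, replicates 1 and 2 being highest. Its change of 0.95 ± 0.30 was not called (edgeR adjusted p = 0.0518) but was without Kir P10 replicate 3 or 4 (0.0148 and 0.021), and it was 0.16 without replicates 1 and 2 and 0.10 by TPM.

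S100a5 and 8 other genes of axon guidance and adhesion, a group of which several depend on neuronal activity in this tissue, rose, while 15 were not called. S100a5, a calcium-binding protein (chromosome 3, 90608523 to 90611780), had 259, 229 and 260 TPM at P5 and 606, 545, 709 and 632 at P10. The log2 change was 1.11 ± 0.14 (edgeR adjusted p = 0.00117), the ages did not overlap, and all 4 P10 libraries lay below the 839 TPM of the lowest WT P5 library. In WT the change was 0.42 (adjusted p = 0.141), and the difference between the 2 changes was 0.69 (edgeR adjusted p = 0.619). Of 24 axon guidance and adhesion genes, S100a5 among them, 9 rose and 0 fell (median 0.36), 10 without both libraries of many unmapped reads, and 4 and 3 without Kir P5 replicate 1 or 2. Kirrel2, a homophilic adhesion protein whose level follows activity, had 75.2, 65.6 and 88.6 TPM at P5 and 113, 95.4, 195 and 153 at P10 (0.90 ± 0.18, edgeR adjusted p = 0.00806). WT libraries held 249 to 305 TPM of it, above all 7 Kir libraries. Cntn4, an axonal contactin, rose by 0.71 ± 0.11, from 173 to 211 TPM to 306 to 372. Pcdh19, a protocadherin, rose by 0.65 ± 0.14 and was not called without Kir P5 replicate 2 (edgeR adjusted p = 0.0559).

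Transmitter release and ion channel genes rose in part. Of 16 synaptic release genes 9 rose and 0 fell (median 0.49), 8 without both libraries of many unmapped reads, but 2 without Kir P5 replicate 1 and 2 without replicate 2. Snap25, a SNARE protein of vesicle fusion, had 61.4, 57.7 and 67.2 TPM at P5 and 86.9, 86.2, 115 and 104 at P10 (0.61 ± 0.09, edgeR adjusted p = 0.00233). Syt1, the calcium sensor of release, rose by 0.66 ± 0.12. Slc17a6, the vesicular glutamate transporter, and Cacna1b, a presynaptic calcium channel, had changes of 0.52 ± 0.12 and 0.49 ± 0.12 whose calls were lost without Kir P5 replicate 1 or 2 (edgeR adjusted p up to 0.0748 and 0.0959). Of 21 potassium channel genes tested 7 rose and 0 fell (median 0.25), 7 without both libraries of many unmapped reads, and 3, 3 and 4 rose without Kir P5 replicate 1, 2 or 3. Kcna2, a delayed-rectifier subunit, had 8.04, 6.92 and 7.35 TPM at P5 and 14.4, 15.5, 15.3 and 15.6 at P10 (0.93 ± 0.10, edgeR adjusted p = 0.000569). Kcnmb3, a subunit of calcium-activated channels, rose by 1.06 ± 0.15 and Kcnma1, the pore of those channels, by 0.52 ± 0.10. Kcnj10, an inward rectifier of supporting and glial cells, rose by 0.75 ± 0.17 at no more than 1.45 TPM and lost the call without any 1 of the 3 P5 libraries (edgeR adjusted p up to 0.0573).

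**Figure D3:**
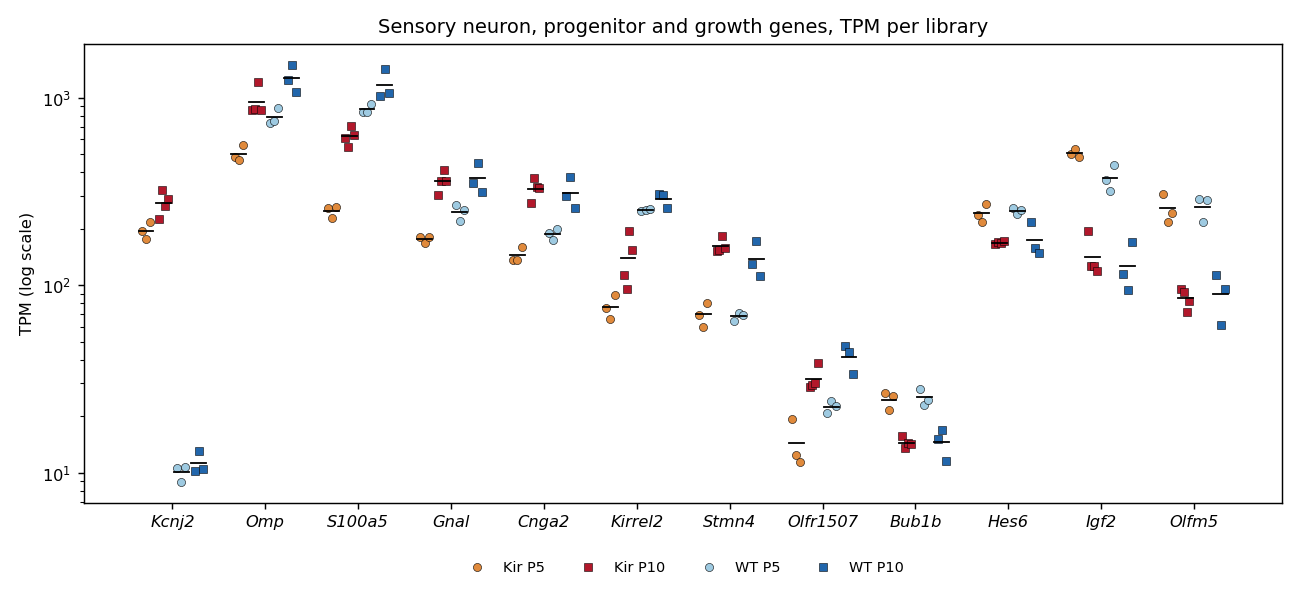
TPM per library (log scale) of 12 genes of sensory neurons, progenitors and growth, with each point a library and each bar a group mean. Kcnj2 separates the genotypes, Omp and S100a5 are higher at P10 in Kir, and Bub1b, Hes6, Igf2 and Olfm5 are lower at P10 in both genotypes.

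Odorant receptor genes, of which each neuron expresses a single allele, were called higher in a minority of cases. Of 1107 receptor genes listed, 1024 were tested, 232 rose and 0 fell, and 993 had a positive log2 fold change (median 0.67). In TPM 319 of the 1024 did not overlap between ages with P10 higher, and 1 with P10 lower, against 15.9% and 6.02% of all genes tested. The 232 rises stand against 7.59% of all genes tested. The count called was 111 of 1028 without both libraries of many unmapped reads, where 5.17% of all genes rose. By TPM it was 97 of the 712 receptors that passed that fit's filter, where 6.42% of all genes rose. The edgeR count was 129, 59 and 50 without Kir P5 replicate 1, 2 or 3 and 116 and 131 without Kir P10 replicate 2 or 4, with 0 lower in each. In WT 35 rose (median 0.28). Receptors together took 0.154%, 0.142% and 0.121% of TPM in Kir P5 replicates 1 to 3 and 0.191%, 0.249%, 0.220% and 0.270% in Kir P10 replicates 1 to 4. The means were 0.139% ± 0.0166 (SD, n = 3) and 0.233% ± 0.0343 (SD, n = 4), exact two-sided permutation p = 0.0571, the smallest that 4 against 3 libraries allow. In WT they were 0.193% ± 0.0206 (SD, n = 3) at P5 and 0.246% ± 0.0334 (SD, n = 3) at P10 (exact permutation p = 0.2). Receptor genes are often close copies, and reads that map to several were left out of the counts.

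Olfr1507, the receptor known as MOR28, had 19.3, 12.4 and 11.4 TPM at P5 and 28.7, 29.3, 30.1 and 38.2 at P10 (1.05 ± 0.21, edgeR adjusted p = 0.00767). Olfr536 had 18.8, 12.95 and 9.93 TPM at P5 and 33.0, 34.4, 22.4 and 32.3 at P10 (1.03 ± 0.16), and Olfr297 rose by 1.13 ± 0.17. Olfr1392 and Olfr150 had the smallest adjusted p among receptors, with changes of 1.58 ± 0.22 and 1.31 ± 0.18 at no more than 4.75 TPM. In WT the change of Olfr150 was 0.03, and the difference between genotypes, 1.28, was not called (edgeR adjusted p = 0.246). Of 11 trace amine-associated receptors tested, a second and small receptor family for volatile amines, 5 rose and 0 fell (median 0.93), and 2, 1 and 1 without Kir P5 replicate 1, 2 or 3, 3 without Kir P10 replicate 2 or 4, 4 without both libraries of many unmapped reads and 1 by TPM. Taar9 rose by 1.40 ± 0.32 and Taar7e by 1.61 ± 0.36, both at no more than 2.84 TPM and both lost without Kir P5 replicate 1 (edgeR adjusted p = 0.0658 and 0.0551). The call of Taar9 was also lost without Kir P5 replicate 3 (0.0642) and that of Taar7e without replicate 2 (0.0534). Among genes that act in receptor choice 2 of 16 rose and 1 fell, against 7.59% and 5.81% of all genes tested. Without both libraries of many unmapped reads 1 rose and 0 fell, against 5.17% and 3.65%. None fell without Kir P5 replicate 1 or 3 or Kir P10 replicate 2 or 4. So few calls do not set these genes apart from all genes tested. Ebf4, an Ebf-family transcription factor, rose by 0.60 ± 0.11, while Lhx2, a LIM homeodomain factor, had 299 to 394 TPM at P5 and 238 to 342 at P10 (-0.34 ± 0.13, edgeR adjusted p = 0.0986), called without Kir P10 replicate 3 (0.0224).

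Genes of dividing cells fell. Of 27 cell cycle genes 25 fell and 0 rose (median -0.74), 25 without both libraries of many unmapped reads and 24 by TPM, and in WT 25 fell (median -0.84). The TPM of all 27 was lower in each P10 library than in each P5 library, which held for 6.02% of all genes tested. Bub1b, a spindle checkpoint kinase (chromosome 2, 118598211 to 118641591), had 26.4, 21.5 and 25.5 TPM at P5 and 15.6, 13.5, 14.3 and 14.1 at P10. It fell by 0.91 on the log2 scale (SE 0.09, edgeR adjusted p = 0.000569). Ccnb2, a mitotic cyclin, had 40.2, 34.8 and 40.0 TPM at P5 and 22.4, 23.6, 22.6 and 23.7 at P10 and fell by 0.81, and Aurkb, a mitotic kinase, fell by 0.85. Mcm3, of the replicative helicase, fell by 0.75 and Top2a, which untangles replicated DNA, by 0.69. Pcna, the sliding clamp of replication, had 162 to 178 TPM at P5 and 132 to 154 at P10, and was not called in counts (0.09 ± 0.23, edgeR adjusted p = 0.837), without both libraries of many unmapped reads (-0.41, 0.132) or by TPM (-0.26, limma adjusted p = 0.099). Cdkn3, a cell cycle phosphatase, and Mxd3, a partner of Max, were among the 12 largest falls, at 1.11 and 1.10 on the log2 scale. The cell cycle homology region TTTGAA, on either strand, stood in the promoter window of 7 of 22 cell cycle genes (31.8%), 143 of 873 genes called lower (16.4%), 188 of 1094 called higher (17.2%), 2031 of 13916 tested genes (14.6%) and 4934 of all 27025 promoters (18.3%).

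Of 16 neuronal progenitor genes 10 fell and 0 rose (median -0.60), 7 without both libraries of many unmapped reads and 4 by TPM, and in WT 9 fell (median -0.58). Nhlh2, a bHLH factor of newly formed neurons, had 35.7, 34.0 and 32.8 TPM at P5 and 19.5, 21.2, 19.6 and 26.7 at P10 and fell by 0.75 (SE 0.11, edgeR adjusted p = 0.00218). Hes6, a neurogenic bHLH factor, had 236, 216 and 272 TPM at P5 and 165, 169, 168 and 173 at P10 and fell by 0.68. Tead2, a Hippo pathway factor, and Ezh2, a histone methyltransferase, fell by 0.73 and 0.57 in counts but were not called by TPM (limma adjusted p = 0.496 and 0.283), where their libraries overlapped. Horizontal basal cells, the quiescent stem cells of the epithelium, had 1 of 10 markers lower and 0 higher. Over all genes tested 5.81% were lower and 7.59% higher. Without both libraries of many unmapped reads 0 of 10 were called. The same held in 6 of the 7 fits that left out 1 Kir library, all but that without Kir P10 replicate 3.

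Imprinted and fetal growth genes held the 2 largest falls of those that met the rule, H19 and Igf2. Of 13 tested 11 fell and 0 rose (median -0.87), 10 without both libraries of many unmapped reads, 7 of 12 by TPM and 8 without Kir P5 replicate 1, and in WT 9 fell (median -0.83). H19, a maternally expressed noncoding RNA (chromosome 7, 142575529 to 142578143), had 805, 858 and 1003 TPM at P5 and 298, 147, 205 and 144 at P10 and fell by 2.28 on the log2 scale (SE 0.26, edgeR adjusted p = 0.000687). Its neighbour Igf2, the fetal insulin-like growth factor, had 502, 535 and 481 TPM at P5 and 193, 127, 126 and 119 at P10 and fell by 2.08 (edgeR adjusted p = 0.000662). Mest fell by 0.87 and Cdkn1c, a cyclin-dependent kinase inhibitor, by 0.96. In the WT libraries H19 and Igf2 fell by 1.94 and 1.73. In both genotypes the ages did not overlap for either gene.

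The other large falls, of 347 genes that met the same rule as the rises, were mixed in kind. Olfm5, an olfactomedin gene, had 308, 218 and 243 TPM at P5 and 94.9, 92.2, 71.8 and 81.9 at P10 and fell by 1.70 (edgeR adjusted p = 0.000569). Acan, the large proteoglycan of cartilage, fell by 1.56, Eln, elastin, by 1.15, and Ctgf, a matrix-associated growth factor, by 1.14, from 41.6 to 45.9 TPM at P5 to 18.8 to 26.1 at P10. The call of Eln was lost without Kir P5 replicate 2 or 3 (edgeR adjusted p = 0.089 and 0.0672). Ccl9, a chemokine of myeloid cells, fell by 1.43 and was not called without Kir P5 replicate 1 (edgeR adjusted p = 0.0597). Lsp1, a leukocyte actin-binding protein, fell by 1.15, Rasl10b, a small GTPase, by 1.19 and Gpha2, a glycoprotein hormone subunit, by 1.23. Of 11 cartilage genes tested 3 fell, against 5.81% of all genes tested. Of these, Col2a1 went from 10.5 to 13.8 TPM to 6.15 to 9.50, a fall of 0.73. Its call was lost without Kir P5 replicate 1 or 3 or Kir P10 replicate 4 (edgeR adjusted p up to 0.0922). Of 18 fibroblast and matrix genes 3 fell and 0 rose (median -0.30), against 5.81% and 7.59% of all genes tested. In 6 the log2 fold change was positive, up to 1.23. The falls numbered 2 without both libraries, against 3.65% of all genes, and 0 and 1 without Kir P5 replicate 2 or 3. Fbln1 fell by 0.56, a call lost without both libraries of many unmapped reads (edgeR adjusted p = 0.102). It was also lost in 6 of 7 fits that left out 1 Kir library, all but that without Kir P10 replicate 3. The list's summed TPM was 2288 to 2738 at P5. In Kir P10 replicates 1 to 4 it was 4908, 8018, 2344 and 2141, replicates 1 and 2 being highest. Of 24 Wnt pathway genes tested 4 fell, against 5.81% of all genes tested, with Fzd2, a Wnt receptor, falling by 0.73. Without both libraries 1 of the 24 fell, against 3.65% of all genes, and 2 fell without any 1 of the P5 libraries. Sfrp2, a secreted Wnt binder, fell by 0.84 and was not called without both (edgeR adjusted p = 0.0608), nor without Kir P5 replicate 1 or 2 or Kir P10 replicate 2 (up to 0.113).

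The bone genes Bglap and Bglap2, which encode osteocalcin, rose unevenly. Bglap had 32.9, 24.6 and 24.9 TPM at P5 and 221, 394, 79.7 and 97.1 at P10, and Bglap2 15.9, 14.95 and 16.5 at P5 and 102, 127, 50.5 and 38.7 at P10. Replicates 1 and 2 at P10 were highest. The log2 fold changes were 3.20 ± 0.58 and 4.61 ± 1.04 in counts, 1.80 and 1.70 without both libraries, and 2.52 and 2.1 on log2(TPM + 1). The call of Bglap2 was lost without any 1 of the P5 libraries (edgeR adjusted p up to 0.0617), and in WT Bglap rose by 2.72 (edgeR adjusted p = 0.0277). Of 12 bone genes tested these 2 were called, against 7.59% of all genes higher. The count was 5 without Kir P10 replicate 3 or 4, and 1, Bglap, without any 1 of the P5 libraries. The bone list's summed TPM was 411 to 540 at P5 and 1822, 3349, 644 and 620 in Kir P10 replicates 1 to 4. How much bone entered each dissection was not tested.

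Markers of sustentacular cells, the supporting cells of the epithelium, did not move together. Of 11 tested 3 rose and 0 fell (median -0.06), against 7.59% and 5.81% of all genes tested, and 5 had a positive change. The number that rose was 0 without Kir P5 replicate 1 or 2 and 1 without Kir P10 replicate 2. Without both libraries of many unmapped reads 2 of 12 rose, against 5.17% of all genes. Cyp1a2, a cytochrome P450, rose by 0.71 ± 0.17 and was not called without Kir P5 replicate 1 or 2 (edgeR adjusted p up to 0.0819). Cyp2a5, another, rose by 0.84 ± 0.22 in counts but was not called without both libraries of many unmapped reads (0.35, edgeR adjusted p = 0.182), nor in 5 of 7 fits that left out 1 Kir library (all but those without Kir P10 replicate 3 or 4). Cyp2g1 went from 1942 to 2138 TPM to 2259 to 3321 (0.47 ± 0.15, edgeR adjusted p = 0.057), called without Kir P10 replicate 1 or 3 (0.0488 and 0.0447). Bpifb3, a BPI-fold protein of nasal secretions, had 78.8, 79.8 and 83.8 TPM at P5 and 238, 346, 220 and 265 at P10 (1.60 ± 0.18, edgeR adjusted p = 0.000662). In WT it rose by 2.64, to 366 to 457 TPM. The difference of the changes, -1.03, was not called by edgeR (adjusted p = 0.354) and was by DESeq2 (adjusted p = 0.016). Of 14 endothelial, 7 red cell and 6 skeletal muscle genes tested 0 were called.

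Ribosomal protein genes showed how far the 2 libraries of many unmapped reads can move a count. Of 82 tested 28 rose and 2 fell in counts (median 1.71), 0 rose and 20 fell without both libraries (median -0.42), and by TPM 0 rose and 1 fell (median -0.06). Without any 1 of the P5 libraries 0 rose and 1 fell, and 17, 8, 52 and 47 rose without Kir P10 replicate 1, 2, 3 or 4. Rpl19, a protein of the large subunit, had 24, 23 and 29 counts at P5 and 5780, 5485, 38 and 33 at P10, while its TPM was 1687, 1646 and 1497 at P5 and 1438, 1574, 1185 and 1307 at P10. Its log2 fold change was 7.34 ± 1.80 in counts, 0.41 without both libraries (edgeR adjusted p = 0.334) and -0.23 on log2(TPM + 1). Of all genes called, 36 changed sign without both libraries, all called higher with them, and 25 of the 36 were ribosomal protein genes. Multiply mapped reads, which the counts leave out, stood at 6.44% and 5.17% in replicates 1 and 2 and 14.6% and 16.2% in replicates 3 and 4. The cause was not tested.

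**Figure D4:**
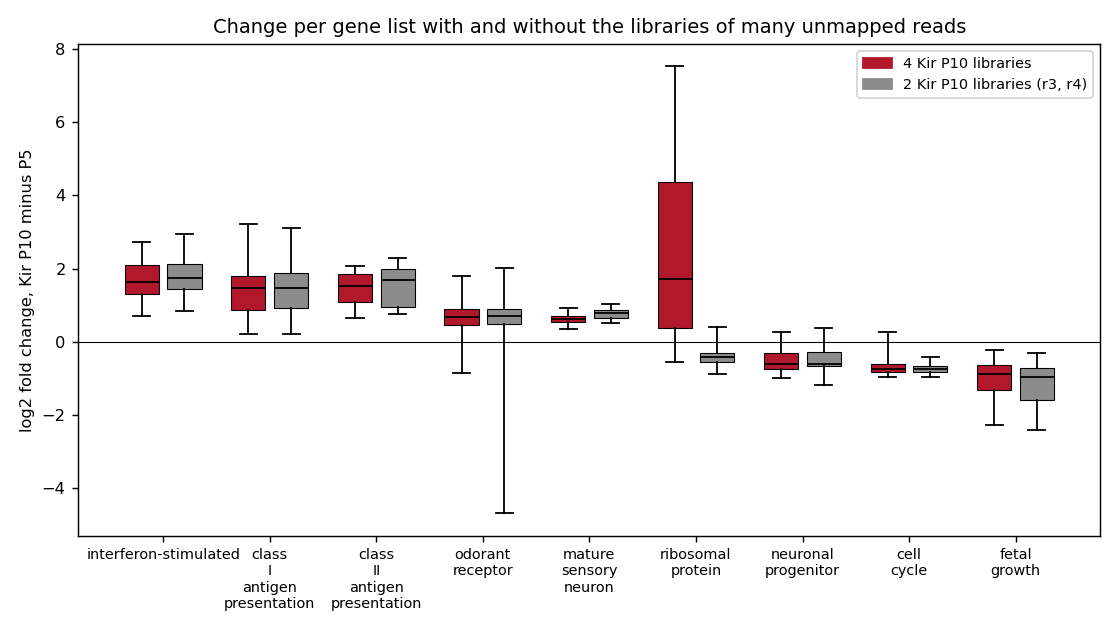
Log2 fold change of the members of 9 gene lists, Kir P10 minus P5, from all 4 P10 libraries (red) and from replicates 3 and 4 alone (grey). Boxes span the quartiles, whiskers the full range and lines mark medians: the interferon-stimulated median is 1.65 and 1.75, while the ribosomal protein median goes from 1.71 to -0.42.

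Set beside WT, the same age step gave 301 genes higher (1.54%) and 465 lower (2.38%) there. Across the 19528 genes the changes in Kir and WT correlated at Pearson r = 0.31, a description over genes, which are not independent. Of the 1483 genes that rose in Kir 1275 had a positive change in WT and 209 were called there, and of the 1135 that fell 1120 had a negative change and 404 were called. The difference of the 2 changes, tested as an interaction in the same fit, gave 0 calls by edgeR (0.0%), with 909 genes at an unadjusted p below 0.05, 646 of them higher in Kir (3.31%), and a smallest adjusted p of 0.0808. In edgeR without both libraries of many unmapped reads, 924 of 19730 genes had an unadjusted p below 0.05, 531 of them higher in Kir. DESeq2 called 74 higher (0.379%) and 3 lower (0.0154%). Ribosomal protein genes made up 42 of the 646 and 2 of the 74. Among the 38 interferon-stimulated genes all 38 had a positive difference with an unadjusted p below 0.05, and DESeq2 called 19. Among the 18 class I genes all 18 had a positive difference, 16 with an unadjusted p below 0.05, and DESeq2 called 9. Among the 7 class II genes all 7 had a positive difference, 0 with an unadjusted p below 0.05, and DESeq2 called 0. Of the 20 mature neuron genes 18 had a positive difference but 0 an unadjusted p below 0.05, and of the 27 cell cycle genes 23 and 1, with 0 called by DESeq2 in both lists. Trim30a had the difference 3.15 (edgeR adjusted p = 0.217, DESeq2 adjusted p = 3.69e-05), Eif2ak2 1.31 (0.164 and 3.69e-05) and B2m 1.82 (0.246 and 5.51e-05). The smallest edgeR p was that of Slfn9, a schlafen protein of the immune system, chosen after its values were seen. It had 14.2 to 14.4 TPM at P5 and 15.9 to 20.2 at P10 in Kir, and 12.3 to 14.5 and 7.32 to 8.50 in WT (difference 1.23).

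**Figure D5:**
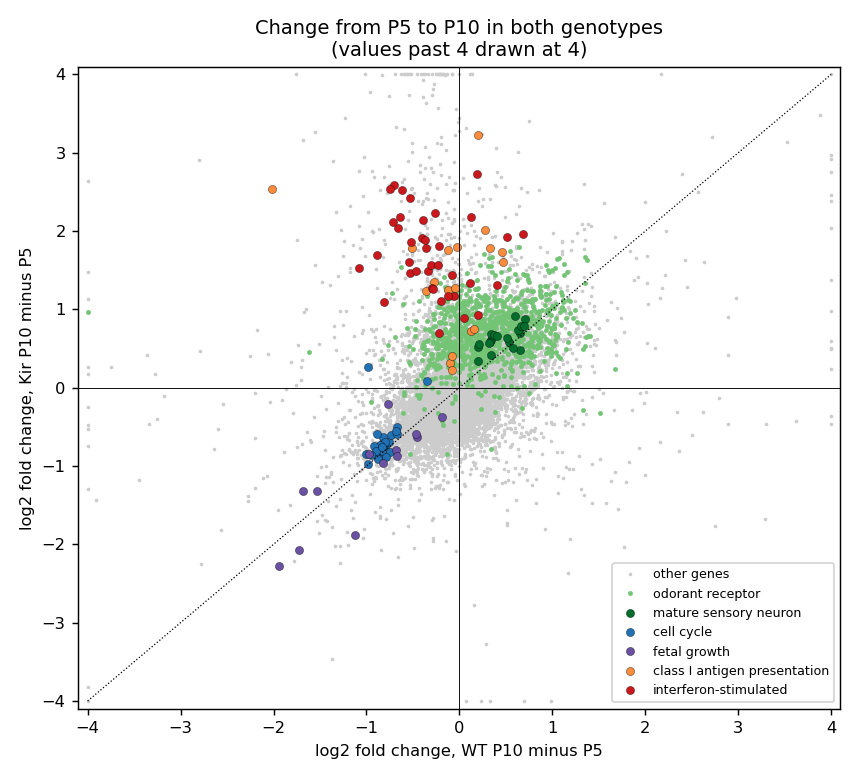
Log2 fold change from P5 to P10 in Kir (vertical) against WT (horizontal) for all genes tested, with 6 gene lists in colour and the dotted line at equal change. Interferon-stimulated and class I genes lie above 0 in Kir (medians 1.65 and 1.48) and near 0 in WT (medians -0.32 and -0.06), and cell cycle and fetal growth genes lie below 0 in both.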

How the data were processed

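The authors deposited whole-number counts per gene and TPM per gene for 54532 genes. The tools named for these files, per the submitters' processing notes, are RSEM, STAR 2.6.1c and bcl2fastq 2.18, on mm10. No strand setting was found in the labels, so overlapping antisense genes cannot be told apart. The 4 lines naming no gene (unmapped, multiply mapped, featureless and ambiguous reads) stayed out of library sizes and tests. Counts of 13 libraries (prefix cry6, P5 and P10) were fitted with edgeR 4.0.16 in R 4.3.3 (TMM, filterByExpr, 1 mean per group, quasi-likelihood F tests, two-sided). Alternatives used DESeq2 1.42.0 and limma 3.58.1 on log2(TPM + 1), mean TPM at least 1. Values after ± are standard errors for log2 fold changes; TPM are per library, replicates numbered in accession order. A gene or list member "rose" or "fell" where edgeR's adjusted p was below 0.05. The members and lists were chosen with earlier results of these data known, and lists are described by counts and medians, without a test. Genes were named by rule: the 12 largest rises and falls described above, up to 4 members per list with the smallest adjusted p and up to 2 with the highest TPM, and Kcnj2, Omp, S100a5 and Ifit3. Not every gene that the rule gave is named. Within each group the counts of any pair of libraries differed by at least 16.8 times the sampling variance, so no pair was treated as 1 library deposited again; this does not show that they came from separate animals. Positions are from GENCODE M21 (GRCm38, the build mm10), which held 54495 of the 54532 identifiers, and promoters from RefSeq (GRCm38.p6). The fits were tested on simulated data.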

Additional observations from a re-analysis of the deposited data

Results flagged for a closer look

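In 7 of the 100 named genes a single Kir P10 library stood apart from the other 3, its gap to the nearest taking more than 0.829 of the range (Dixon's 95% limit for 4 values; chance gives about 1 such case in 20 genes, so 7 is close to what chance gives). Replicate 1 was lowest for B2m (776 TPM) and Oas2 (10.3 TPM) and highest for Igf2 (193 TPM). Replicate 3 was highest for Omp (1215 TPM), H2-Q4 (55.5 TPM) and Stmn4 (184 TPM), and replicate 4 for Olfr1507 (38.2 TPM). Unmapped reads, which no comparison of genes uses, made up 17.7% of Kir P10 replicate 1 and 33.5% of replicate 2, against 1.31% to 1.65% in WT P10.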

How the results depend on the processing

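Of the 93 named genes called in Kir, every scaling of the counts and the DESeq2 test kept 93, the fit without both libraries of many unmapped reads 84, and the TPM fit 79. Rpl19 turned negative in the 4 TPM fits (-0.23 in 3 of them and -0.37 without both libraries); the cause was not tested. Genes higher in Kir, 1483, numbered 624 by TPM with no filter, 799 from Kir libraries alone and 682 by TPM without both libraries, and 549 to 1810 when 1 library was left out. Genes lower, 1135, numbered 358 by TPM, 348 with a pseudocount of 0.1, 260 with no filter, 692 from Kir libraries alone, 692 over all 47 libraries, 721 without both libraries and 217 by TPM without both, and 519 to 1273 when 1 library was left out. The 766 genes called in WT became 1444 by DESeq2, 249, 253 and 101 in these 3 TPM fits, 385 over all 47 libraries and 239 by TPM without both, 222 to 671 when 1 WT library was left out and 589 to 1015 when 1 Kir library was. For the difference of changes, with 0 called, DESeq2 gave 77, no count filter 13, TPM with a pseudocount of 0.1 gave 1, TPM with no filter 4, all 47 libraries 19, TPM without both 3, and leaving out 1 library 0 to 2; it was not fitted on Kir libraries alone. No paired analysis was possible because the titles do not pair libraries across ages. Each of the 13 titles ends in its own number, whose meaning the title does not state. The replicate numbers used here follow accession order. With 4 and 3 libraries, and TPM that keep no depth, small changes of genes with few counts were not detectable.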
